A study of Mus musculus with 12 samples.

Results

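The comparison asked what adolescent exposure to THC (delta-9-tetrahydrocannabinol), the psychoactive principle of cannabis, left behind in the adult brain transcriptome when no immune stimulus followed. THC_Ctrl mice (3 libraries) received THC at 5 mg/kg by daily intraperitoneal injection on postnatal days 30 to 44, and saline at day 70. Veh_Ctrl mice (3 libraries) received the THC vehicle in adolescence and the same adult saline. All were male C57BL6 mice, and brains were taken 24 h after the adult injection. Both groups had thus been injected in adolescence and as adults. These were 6 of the 12 libraries of the series. The other 6, THC_LPS and Veh_LPS with 3 each, came from mice given the same adolescent treatments and then lipopolysaccharide (LPS), a bacterial cell wall component, at 0.33 mg/kg. Every gene with enough reads entered the comparison, 17208 of the 25556 genes of the joined tables. Whether the libraries within each group are separate mice is not stated in the labels, and the p-values cover only the spread among these libraries, part of which may be technical. The RNA came from whole tissue, so fewer cells of a type and less RNA per cell cannot be told apart.

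THC acts on the cannabinoid receptors CB1, which sits mainly on presynaptic nerve endings in the brain, and CB2, which is found mainly on immune cells. The endocannabinoids that normally occupy CB1 are made on demand by the postsynaptic neuron and dampen transmitter release. Immediate early genes are transcribed within minutes of synaptic activity, growth factors or stress, without the need for new protein, and many encode transcription factors of the Fos, Jun, Egr and Nr4a families. Their transcripts are short-lived, so their level in brain tissue is widely read as a record of recent stimulation.

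Library depth was 24.7 to 25.6 M counted reads in THC_Ctrl and 24.3 to 26.4 M in Veh_Ctrl, and 1 read was worth 0.0385 to 0.0415 CPM (a gene's reads relative to library size, scaled by edgeR's TMM factors). The tissue label was checked against its markers, with the neuronal gene Snap25 at 1288, 1086 and 1187 CPM in THC_Ctrl and 1622, 1397 and 1273 CPM in Veh_Ctrl, and with myelin, astrocyte, endothelial and microglia markers in every library. Mitochondrially encoded transcripts made up 5.73, 5.47 and 6.12% of reads in THC_Ctrl and 4.67, 4.11 and 5.11% in Veh_Ctrl, groups that did not overlap. The part of this difference in the results below was not tested. Of the LPS libraries, which shared the fit, THC_LPS replicate 3 stood apart by its trend of gene level on GC content (Spearman correlation -0.746 over genes, against -0.11 to 0.275 elsewhere) and Veh_LPS replicate 2 by pituitary hormone transcripts.

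The 9 genes with the smallest p-values of the comparison were immediate early genes, all with higher levels in THC_Ctrl. Cyr61, Egr1 and Fosb led the ranking, followed by Nr4a1, Dusp1, Sik1, Egr2, Btg2 and Fosl2, with log2 fold changes of 0.94 to 2.30. The evidence depended on the test. By edgeR's quasi-likelihood test on all 12 libraries with Benjamini-Hochberg adjustment, 0 of 17208 genes passed an adjusted p under 0.05 (0% called), and 623 genes (3.62%) had an unadjusted p under 0.05, where chance gives 860. DESeq2 on the same libraries called 14 of 14652 genes (0.0956%), 13 higher (0.0887%) and 1 lower (0.00683%). Among the higher ones was Apold1, not one of the 10 leading genes (log2 fold change 1.21 ± 0.26; edgeR adjusted p = 0.433; DESeq2 adjusted p = 0.0162). Limma-voom with sample weights called 97 genes (0.564%), 36 higher (0.209%) and 61 lower (0.354%), and edgeR fitted to the 6 saline libraries alone called 9 (0.055%), 6 higher (0.0366%) and 3 lower (0.0183%).

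Cyr61, which encodes a matrix-associated signalling protein and is induced like other immediate early genes (ENSMUSG00000028195, chromosome 3, 145646971 to 145649985, mm10), had 16.1, 21.3 and 22.2 CPM in THC_Ctrl replicates 1 to 3, against 3.85, 5.76 and 5.85 CPM in Veh_Ctrl. The lowest THC_Ctrl library stood well above the highest Veh_Ctrl library. The log2 fold change was 1.95 ± 0.31 (SE; edgeR adjusted p = 0.0939; DESeq2 adjusted p = 6.81e-06; edgeR on 6 libraries, adjusted p = 0.000129). Egr1, a zinc finger transcription factor used as a marker of neuronal activation (ENSMUSG00000038418, chromosome 18, 34859823 to 34864984), had 246, 352 and 318 CPM in THC_Ctrl replicates 1 to 3, against 132, 137 and 177 CPM in Veh_Ctrl. Both genes had groups without overlap, which was a condition for the 10 leading genes. The log2 fold change of Egr1 was 1.04 ± 0.16 (edgeR adjusted p = 0.0939; DESeq2 adjusted p = 7.22e-06). Fosb, a subunit of the AP-1 transcription factor that accumulates in the striatum on repeated drug exposure (ENSMUSG00000003545, chromosome 7, 19302721 to 19310045), had 20.6, 35.96 and 31.1 CPM in THC_Ctrl and 8.24, 9.03 and 12.7 CPM in Veh_Ctrl, and its log2 fold change was 1.55 ± 0.25 (edgeR adjusted p = 0.0939; DESeq2 adjusted p = 1.78e-05).

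The orphan nuclear receptor gene Nr4a1 had 136, 222 and 227 CPM in THC_Ctrl and 50.5, 54.4 and 77.4 CPM in Veh_Ctrl, with 1.68 ± 0.29 as its log2 fold change (edgeR adjusted p = 0.127; DESeq2 adjusted p = 0.0162). Egr2, a close relative of Egr1, had the largest fold change of the 10 leading genes, with 9.83, 17.2 and 18.00 CPM in THC_Ctrl and 1.81, 2.40 and 4.94 CPM in Veh_Ctrl (log2 fold change 2.30 ± 0.43; edgeR adjusted p = 0.177; DESeq2 adjusted p = 0.0272). In both genes replicate 1 was the lowest THC_Ctrl library and still exceeded every Veh_Ctrl library. Dusp1, a phosphatase that switches off MAP kinases, had 69.8, 103 and 101 CPM in THC_Ctrl and 27.6, 41.04 and 43.8 CPM in Veh_Ctrl (log2 fold change 1.28 ± 0.23; DESeq2 adjusted p = 0.000234). Sik1, a kinase that restrains CREB-dependent transcription, had 22.7, 35.5 and 37.4 CPM in THC_Ctrl and 12.8, 14.4 and 16.4 CPM in Veh_Ctrl (log2 fold change 1.13 ± 0.21; DESeq2 adjusted p = 0.000957). Btg2, an antiproliferative immediate early gene, had 35.8, 52.4 and 44.4 CPM in THC_Ctrl and 14.3, 19.1 and 22.9 CPM in Veh_Ctrl (log2 fold change 1.24 ± 0.26; DESeq2 adjusted p = 0.00587). In all 3 genes THC_Ctrl replicate 1 was nearest to the Veh_Ctrl range. Fosl2, another AP-1 subunit, had 36.6, 48.6 and 70.6 CPM in THC_Ctrl and 24.4, 28.2 and 28.8 CPM in Veh_Ctrl, here with replicate 3 the highest (log2 fold change 0.94 ± 0.20; DESeq2 adjusted p = 0.0151). Dnah11, a dynein heavy chain of motile cilia and no immediate early gene, was the 10th, with 9.10, 8.00 and 8.69 CPM in THC_Ctrl and 2.91, 3.06 and 5.69 CPM in Veh_Ctrl (log2 fold change 1.15 ± 0.25; DESeq2 adjusted p = 0.0162). The edgeR adjusted p on 12 libraries was 0.161 for Dusp1 and Sik1 and 0.433 for Btg2, Fosl2 and Dnah11.

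**Figure D1:**
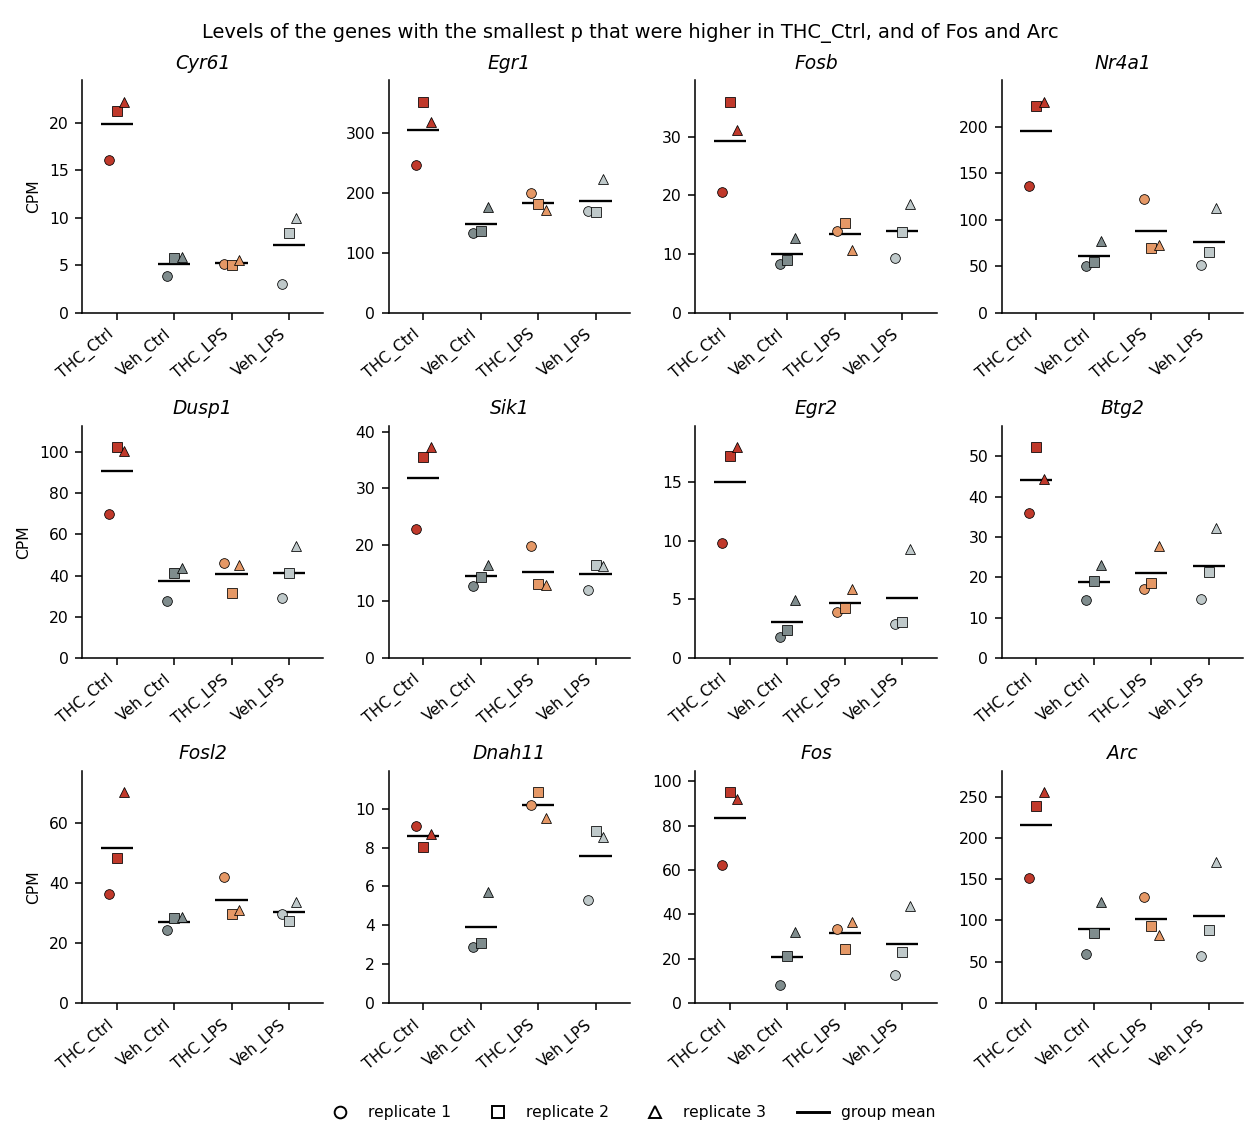
CPM (vertical axis, from 0) of the 10 genes with the smallest p among those higher in THC_Ctrl, and of Fos and Arc, in all 12 libraries by group. Symbols are replicates and bars are group means; groups without overlap were a condition for the 10 genes, and the panels of Fos and Arc also show all 3 THC_Ctrl libraries above the 3 Veh_Ctrl libraries.

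The regions in front of these genes are shown because many immediate early genes are controlled through cyclic AMP response elements, to which the activity-dependent factor CREB binds. For 6 of the 10 leading genes a single RefSeq start was used, and the 250 bases upstream of it are given 5′ to 3′ on the strand of the gene (RefSeq, GRCm38.p6). Capitals mark the core TGACG of the element, or CGTCA where it lies on the other strand, and the full element TGACGTCA, which holds the TGACG core on both strands. The windows were chr3:145649986-145650235 on the minus strand for Cyr61, chr7:19310046-19310295 on the minus strand for Fosb and chr15:101266596-101266845 on the plus strand for Nr4a1, and chr17:26508473-26508722 on the minus strand for Dusp1, chr1:134079156-134079405 on the minus strand for Btg2 and chr5:32136222-32136471 on the plus strand for Fosl2.
Cyr61: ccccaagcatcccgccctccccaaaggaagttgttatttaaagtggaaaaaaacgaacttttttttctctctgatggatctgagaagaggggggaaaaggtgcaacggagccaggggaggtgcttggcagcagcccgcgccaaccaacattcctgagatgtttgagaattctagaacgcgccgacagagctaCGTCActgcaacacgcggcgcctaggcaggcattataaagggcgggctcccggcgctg
Fosb: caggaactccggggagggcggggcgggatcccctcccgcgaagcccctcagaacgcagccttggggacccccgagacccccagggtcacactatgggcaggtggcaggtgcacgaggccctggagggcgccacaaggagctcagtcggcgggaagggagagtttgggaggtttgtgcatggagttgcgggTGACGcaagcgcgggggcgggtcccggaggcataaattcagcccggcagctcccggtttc
Nr4a1: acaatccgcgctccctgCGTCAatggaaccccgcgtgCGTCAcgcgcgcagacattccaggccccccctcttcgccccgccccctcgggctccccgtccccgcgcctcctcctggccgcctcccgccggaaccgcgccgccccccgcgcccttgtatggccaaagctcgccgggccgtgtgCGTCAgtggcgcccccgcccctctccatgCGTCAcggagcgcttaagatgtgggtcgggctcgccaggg
Dusp1: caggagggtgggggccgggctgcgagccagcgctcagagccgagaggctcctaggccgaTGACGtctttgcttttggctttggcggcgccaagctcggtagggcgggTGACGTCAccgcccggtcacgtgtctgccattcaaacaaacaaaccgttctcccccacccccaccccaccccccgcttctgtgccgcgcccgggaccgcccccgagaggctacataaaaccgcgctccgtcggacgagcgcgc
Btg2: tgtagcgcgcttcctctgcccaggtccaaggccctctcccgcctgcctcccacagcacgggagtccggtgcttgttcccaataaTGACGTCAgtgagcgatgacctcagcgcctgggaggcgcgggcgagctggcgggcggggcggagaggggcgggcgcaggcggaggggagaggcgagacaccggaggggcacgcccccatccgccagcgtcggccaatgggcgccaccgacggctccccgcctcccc
Fosl2: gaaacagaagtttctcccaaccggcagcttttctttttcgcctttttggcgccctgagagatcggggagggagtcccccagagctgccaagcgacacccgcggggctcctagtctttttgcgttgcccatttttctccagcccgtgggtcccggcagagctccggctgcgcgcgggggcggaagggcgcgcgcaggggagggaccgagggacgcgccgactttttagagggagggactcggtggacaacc
The TGACG core was present in 5 of the 6 windows, once in Cyr61 and in Fosb and 4 times in Nr4a1. In Cyr61 it lay 54 to 58 bases before the start and in Fosb 56 to 60 bases before it. Dusp1 and Btg2 held the full element, and Fosl2 held no match. All 6 windows belong to immediate early genes. No windows are given for Egr1, Sik1, Egr2 and Dnah11, the last being the only leading gene that is no immediate early gene. Dnah11 was left out by choice. The count of 5 of 6 thus describes these windows and not the 10 leading genes. Over the AP-1, Egr and Nr4a lists described next, 18 of 28 RefSeq starts (64.3%) had the TGACG core, against 17.8% of all 32851 starts and 24.5% of the 15430 starts of tested genes. The 28 starts belong to 22 of the 27 listed genes, and the rest, Egr1 among them, had no start in the set searched. By gene, 15 of the 22 had the core, against 3452 of 12105 tested genes with a start. The full element was in 7.14% of those 28 starts, 1.55% of all starts and 2.4% of the starts of tested genes. The CArG box, to which serum response factor binds, was in 21.4% of the 28 starts, 1.47% of all starts and 1.23% of those of tested genes. The list's matches were 6 starts of 3 genes. The AP-1 site TGANTCA, searched on both strands like the others, was in 0 of the 28, in 6.75% of all starts and in 4.67% of those of tested genes. A match is a run of letters and was not tested for binding.

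Of the 27 tested genes on the AP-1, Egr and Nr4a lists, 16 had all 3 THC_Ctrl libraries above all 3 Veh_Ctrl libraries and 0 had them below, where 5.96% and 6.85% of all tested genes did so. The median log2 fold change was 0.76, against -0.01 over all genes tested. The lists were chosen with earlier results of these data known, so these values are a description. EdgeR on 12 libraries called 0 of the 27. DESeq2 called 7 of them, all higher, where it called 0.0956% of all genes. Voom with sample weights called 5 (0.564% of all genes) and edgeR on 6 libraries 2 (0.055% of all genes). Among the AP-1 genes, Fos had 62.5, 95.3 and 92.2 CPM in THC_Ctrl replicates 1 to 3, against 8.28, 21.4 and 32.2 CPM in Veh_Ctrl, with replicate 1 of each group the lowest (log2 fold change 2.01 ± 0.46; edgeR adjusted p = 0.738; DESeq2 adjusted p = 0.129). Junb, a partner of Fos, had 73.1, 116 and 114 CPM in THC_Ctrl and 31.4, 51.97 and 55.5 CPM in Veh_Ctrl without overlap, and Jun 68.9, 82.9 and 73.4 CPM in THC_Ctrl and 62.1, 63.8 and 65.1 CPM in Veh_Ctrl. Atf3, a stress-induced factor, was low at 1.17, 1.93 and 2.46 CPM in THC_Ctrl and 0.432, 0.580 and 0.830 CPM in Veh_Ctrl and did not overlap either. Jund, which is expressed constitutively, had 127, 147 and 134 CPM in THC_Ctrl and 121, 158 and 140.1 CPM in Veh_Ctrl, and Fosl1, Maff, Ier3 and Ier5 overlapped as well. The 7 AP-1 genes without overlap were Fos, Fosb, Fosl2, Jun, Junb, Atf3 and Ier2.

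In the Egr and Nr4a list 9 of 15 genes did not overlap. Npas4, a neuron-specific factor that responds to calcium entry, had 45.1, 67.03 and 42.8 CPM in THC_Ctrl and 14.96, 22.5 and 36.8 CPM in Veh_Ctrl, and Egr4 48.9, 80.9 and 75.3 CPM in THC_Ctrl and 28.6, 36.2 and 38.6 CPM in Veh_Ctrl. Nr4a3 had 30.99, 51.2 and 63.2 CPM in THC_Ctrl and 29.5, 23.1 and 19.7 CPM in Veh_Ctrl and was called by DESeq2 (adjusted p = 0.0230), while Nr4a2 had 40.6, 46.96 and 52.9 CPM in THC_Ctrl and 34.9, 28.2 and 29.1 CPM in Veh_Ctrl and was called by voom (adjusted p = 0.0365). The 2 relatives of Nr4a1 were thus also highest in THC_Ctrl, by smaller margins. Their edgeR adjusted p on 12 libraries was 0.657 for Nr4a3 and 0.868 for Nr4a2. Nr4a3 was called in 1 of 25 alternatives and Nr4a2 in 3 of 25. Egr3 overlapped, with 58.98, 75.9 and 75.5 CPM in THC_Ctrl and 61.3, 62.9 and 48.8 CPM in Veh_Ctrl, as did Srf, whose protein drives many of these genes, with 58.1, 74.2 and 72.9 CPM in THC_Ctrl and 70.4, 78.8 and 65.7 CPM in Veh_Ctrl. Summed over the 27 genes, levels were 1272, 1767 and 1714 CPM in THC_Ctrl replicates 1 to 3, against 873, 989 and 1018 CPM in Veh_Ctrl. Every THC_Ctrl library exceeded every other library of the series, THC_LPS having 1103, 982 and 818 CPM and Veh_LPS 915, 939 and 1192 CPM.

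Downstream genes of synaptic activity did not all differ in the same direction. Of 20 synaptic activity effectors 4 were higher without overlap and 2 lower, with a median of -0.04. Over all tested genes 5.96% were higher and 6.85% lower without overlap, the background for each list count in this paragraph. Arc, which encodes a protein of the postsynaptic density that is made at active synapses, had 152, 239 and 256 CPM in THC_Ctrl and 59.8, 85.2 and 122 CPM in Veh_Ctrl (log2 fold change 1.27 ± 0.34; edgeR adjusted p = 0.868). Sik1, Per1 and Arl4d were the other 3 that were higher. Bdnf, the activity-dependent neurotrophin, had 9.39, 8.37 and 12.3 CPM in THC_Ctrl and 12.5, 13.1 and 11.2 CPM in Veh_Ctrl, and Nptx2, a secreted organiser of excitatory synapses, 37.7, 44.3 and 51.1 CPM in THC_Ctrl and 52.3, 55.99 and 39.7 CPM in Veh_Ctrl, both with overlapping groups. Homer1 stood at 89.1, 85.1 and 111 CPM in THC_Ctrl and 136, 124 and 87.8 CPM in Veh_Ctrl. Cort, a cortistatin gene of interneurons, had 1.09, 1.93 and 2.27 CPM in THC_Ctrl and 3.18, 2.61 and 2.91 CPM in Veh_Ctrl, and Inhba, an activin subunit, 1.62, 1.35 and 1.81 CPM in THC_Ctrl and 3.53, 2.32 and 2.12 CPM in Veh_Ctrl, both lower without overlap. MAP kinase feedback genes held 2 of 14 without overlap, Dusp1 and Dusp5, the second with 33.9, 46.5 and 56.4 CPM in THC_Ctrl and 21.1, 29.3 and 29.7 CPM in Veh_Ctrl. Of 15 tested YAP and matricellular genes 2 were higher without overlap, Cyr61 and Amotl2 (40.3, 40.8 and 39.97 CPM in THC_Ctrl and 30.3, 30.9 and 36.5 CPM in Veh_Ctrl), and 2 were lower. Sparc, a matricellular gene also made by microglia, was one of the lower ones, at 335, 302 and 364 CPM in THC_Ctrl and 391, 482 and 427 CPM in Veh_Ctrl.

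**Figure D2:**
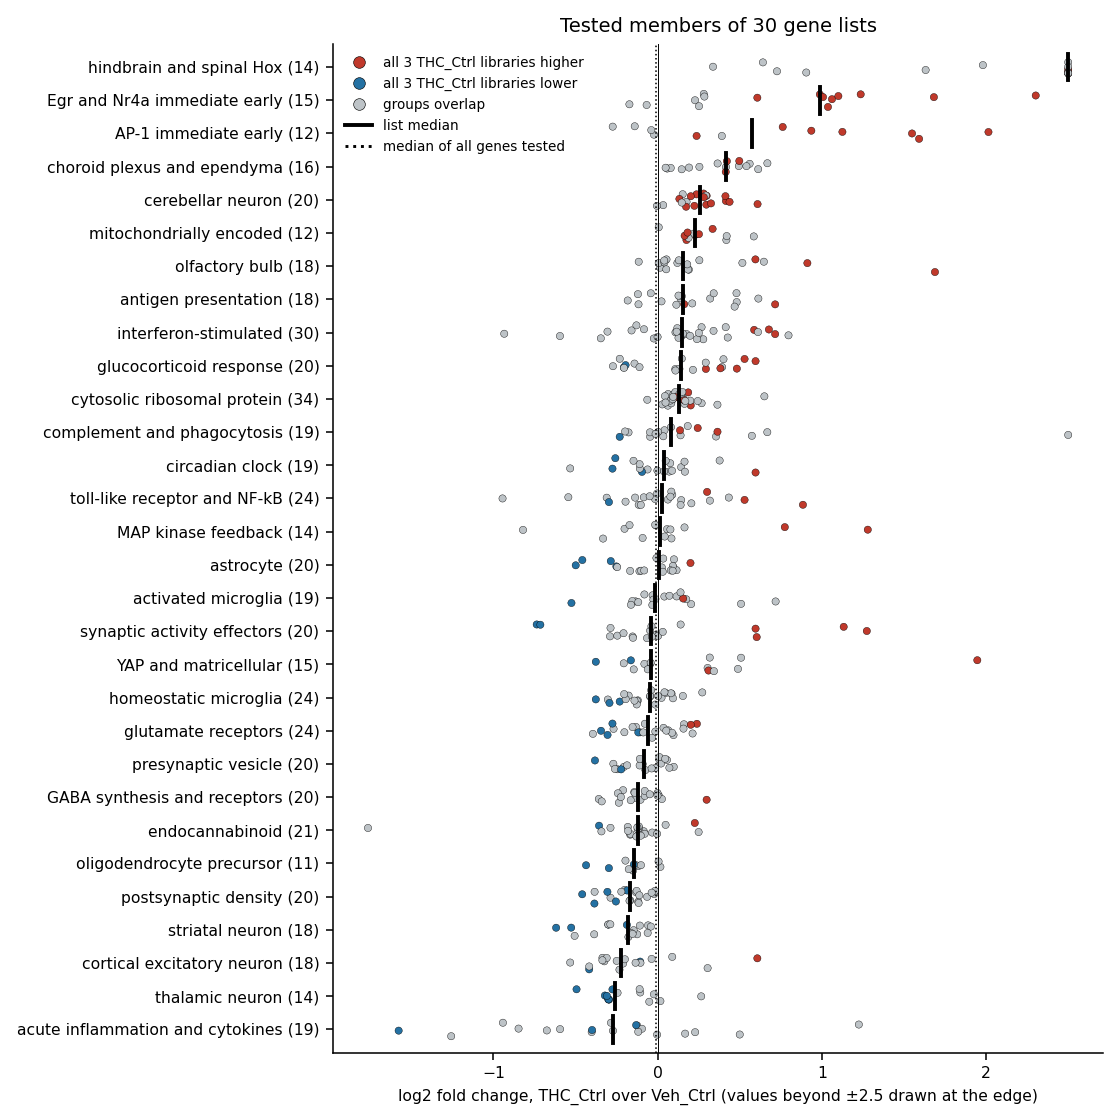
Each point is a tested gene of 1 of 30 lists (number of tested genes in brackets) at its log2 fold change of THC_Ctrl over Veh_Ctrl, with lists ordered by their medians. Red and blue points are genes whose 3 THC_Ctrl libraries all lie above or below the 3 Veh_Ctrl libraries; the Egr and Nr4a list has a median of 0.99 with 9 of 15 points red, and the postsynaptic density list has all 20 points below 0.

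In the glucocorticoid response list 5 of 20 genes were higher without overlap and 2 lower (median 0.14), where 5.96% and 6.85% of all tested genes were. Per1, a clock gene that also responds to glucocorticoids and to CREB, had 128, 174 and 177 CPM in THC_Ctrl and 100.5, 107 and 109 CPM in Veh_Ctrl. Ddit4, an inhibitor of mTOR signalling, had 42.6, 52.01 and 59.2 CPM in THC_Ctrl and 32.3, 41.4 and 36.4 CPM in Veh_Ctrl (log2 fold change 0.48 ± 0.15; edgeR adjusted p = 1; voom adjusted p = 0.0416), and Nfkbia, which encodes the NF-kB inhibitor IkB alpha, 20.9, 26.2 and 23.8 CPM in THC_Ctrl and 17.04, 16.4 and 15.7 CPM in Veh_Ctrl (voom adjusted p = 0.0455). Errfi1 and Sult1a1 were the other 2. Nfkbia had an edgeR adjusted p of 0.963 on 12 libraries and a DESeq2 adjusted p of 0.21. The classical glucocorticoid target Fkbp5 was lower without overlap, at 26.6, 24.5 and 23.04 CPM in THC_Ctrl and 30.3, 28.4 and 26.8 CPM in Veh_Ctrl, as was Pdk4. Sgk1 overlapped, with 63.1, 77.9 and 113 CPM in THC_Ctrl and 64.9, 69.3 and 59.3 CPM in Veh_Ctrl and its highest value in THC_Ctrl replicate 3. Of 19 clock genes, 1 was higher without overlap, Per1, and 3 were lower, Npas2, Cry2 and Rora. The core clock gene Arntl overlapped, at 32.9, 33.8 and 30.1 CPM in THC_Ctrl and 35.1, 35.1 and 30.8 CPM in Veh_Ctrl, as did Dbp, a clock output with a large daily swing, at 83.1, 106 and 93.6 CPM in THC_Ctrl and 90.8, 112 and 102 CPM in Veh_Ctrl.

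The 10 leading genes lower in THC_Ctrl had log2 fold changes of -0.79 to -0.44, against 0.94 to 2.30 for the 10 leading higher genes. Ddn, which encodes dendrin, a protein of dendrites and their spines (ENSMUSG00000059213, chromosome 15, 98803782 to 98807925), had 475, 522 and 505 CPM in THC_Ctrl replicates 1 to 3, against 997, 895 and 696 CPM in Veh_Ctrl. The groups did not overlap, and Veh_Ctrl spread more widely than THC_Ctrl. The log2 fold change was -0.79 ± 0.17 (edgeR adjusted p = 0.433), and Ddn was the 1 lower gene called by DESeq2 (adjusted p = 0.0151) and 1 of 3 called by edgeR on 6 libraries (adjusted p = 0.0108). The other 2 were Kifc2, a kinesin gene, with 222, 252 and 232 CPM in THC_Ctrl and 427, 397 and 339 CPM in Veh_Ctrl (edgeR on 6 libraries, adjusted p = 0.00575), and Kif5a, a neuronal kinesin heavy chain, with 1215, 994 and 1049 CPM in THC_Ctrl and 1819.5, 1479 and 1662 CPM in Veh_Ctrl. Gnaz, a G protein alpha subunit of the inhibitory class to which CB1 couples, had 43.5, 41.4 and 39.1 CPM in THC_Ctrl and 65.3, 60.7 and 54.6 CPM in Veh_Ctrl (log2 fold change -0.54 ± 0.13; voom adjusted p = 0.00215; edgeR on 6 libraries, adjusted p = 0.0503). Groups without overlap were a condition for the 10 genes, so their separation is a description. On 12 libraries the edgeR adjusted p was 0.868 for Kifc2 and 0.706 for Gnaz.

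Pdgfra, the growth factor receptor that marks oligodendrocyte precursors, had 52.3, 44.6 and 46.1 CPM in THC_Ctrl and 64.9, 64.6 and 63.9 CPM in Veh_Ctrl (log2 fold change -0.44 ± 0.11; voom adjusted p = 0.0166), and Gpc5, a glypican of astrocytes, 25.6, 24.01 and 24.3 CPM in THC_Ctrl and 37.1, 37.3 and 29.98 CPM in Veh_Ctrl (voom adjusted p = 0.0136). Cpe, the carboxypeptidase that trims neuropeptides, had 1373, 1359.6 and 1489 CPM in THC_Ctrl and 2160.0, 2288 and 1638 CPM in Veh_Ctrl, Hpcal4, a neuronal calcium sensor, 697, 714 and 676 CPM in THC_Ctrl and 1143, 1021 and 802 CPM in Veh_Ctrl, and Lrrc10b, a gene of the striatal list, 19.98, 17.7 and 22.9 CPM in THC_Ctrl and 31.2, 33.3 and 28.4 CPM in Veh_Ctrl. The noncoding locus Gm3764 and C130074G19Rik completed the 10. For Pdgfra and Gpc5 the edgeR adjusted p on 12 libraries was 0.868, and the DESeq2 adjusted p was 0.0829 and 0.0998. Ddn averaged 500.5 ± 23.97 CPM in THC_Ctrl and 863 ± 153 CPM in Veh_Ctrl, against 516 ± 108 CPM in THC_LPS and 611 ± 94.9 CPM in Veh_LPS (SD, n = 3 each).

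**Figure D3:**
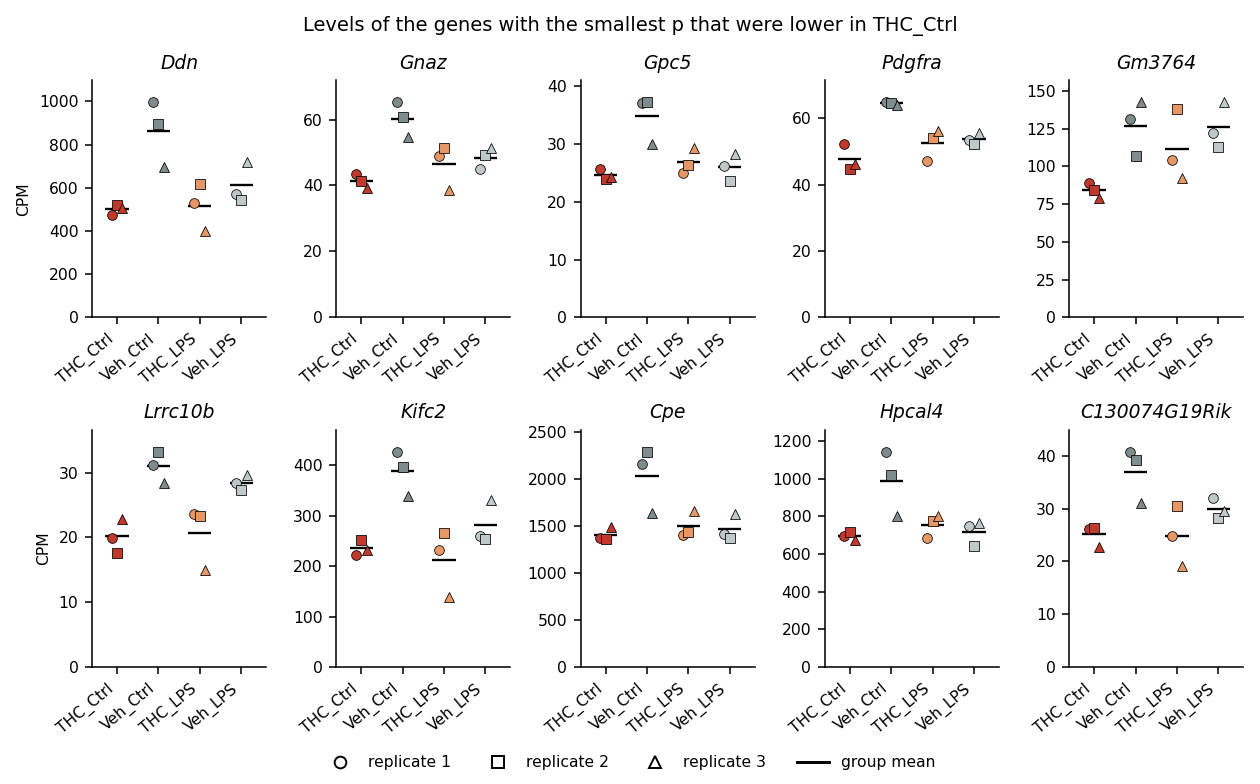
CPM (vertical axis, from 0) of the 10 genes with the smallest p among those lower in THC_Ctrl, in all 12 libraries by group, with symbols for replicates and bars for group means. The genes were chosen among those whose groups did not overlap, so the separation of THC_Ctrl and Veh_Ctrl in each panel is not a finding. In the panel of Ddn the LPS groups lie between 402 and 719 CPM.

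Genes of the endocannabinoid system showed 1 of 21 tested members higher and 1 lower without overlap, where 5.96% and 6.85% of all tested genes were. They had a median of -0.12 and 0 edgeR calls (3 positive and 18 negative log2 fold changes). Cnr1, which encodes CB1, the receptor through which THC acts on neurons, had 199, 178 and 207 CPM in THC_Ctrl replicates 1 to 3, against 246, 226 and 189.6 CPM in Veh_Ctrl. The ranges overlapped, and the log2 fold change was -0.18 ± 0.18 (edgeR adjusted p = 1). Cnr2, which encodes CB2, was near the detection limit, at 0.324, 0.0410 and 0.0385 CPM in THC_Ctrl and 0.118, 0.745 and 0.540 CPM in Veh_Ctrl, or 10 reads over the 3 THC_Ctrl libraries and 34 over the 3 Veh_Ctrl libraries. Mgll, the lipase that degrades the endocannabinoid 2-AG, was the lower member, with 137, 142 and 129 CPM in THC_Ctrl and 181, 179 and 161 CPM in Veh_Ctrl (log2 fold change -0.36 ± 0.13; edgeR adjusted p = 1; voom adjusted p = 0.0432). Faah, which degrades anandamide, had 89.1, 107 and 89.4 CPM in THC_Ctrl and 104, 109 and 96.2 CPM in Veh_Ctrl, and Dagla, which makes 2-AG, 152, 161 and 151 CPM in THC_Ctrl and 166, 151 and 157 CPM in Veh_Ctrl, both overlapping. Napepld, an enzyme of anandamide synthesis, had 14.9, 13.9 and 18.1 CPM in THC_Ctrl and 20.5, 15.8 and 16.4 CPM in Veh_Ctrl. Abhd4, of the same pathway, was the higher member at 78.4, 83.5 and 80.98 CPM in THC_Ctrl and 65.6, 71.9 and 70.01 CPM in Veh_Ctrl. DESeq2 called 0 of the 21, where it called 0.0956% of all genes.

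Microglial markers mostly overlapped between the groups. Of 24 homeostatic microglia genes 0 were higher and 3 lower without overlap (median -0.05), namely Sparc, Tgfbr1 and Mertk. The shares over all tested genes were 5.96% higher and 6.85% lower. P2ry12, the purinergic receptor of surveying microglia, had 20.3, 19.3 and 25.7 CPM in THC_Ctrl and 21.7, 23.4 and 20.9 CPM in Veh_Ctrl, Tmem119 19.5, 20.1 and 21.97 CPM in THC_Ctrl and 22.9, 23.3 and 17.1 CPM in Veh_Ctrl, Cx3cr1, the fractalkine receptor, 26.7, 22.7 and 30.7 CPM in THC_Ctrl and 28.6, 29.1 and 29.6 CPM in Veh_Ctrl, and Aif1, which encodes Iba1, 2.59, 2.09 and 2.54 CPM in THC_Ctrl and 1.92, 3.77 and 2.28 CPM in Veh_Ctrl, all overlapping (log2 fold changes -0.01 ± 0.23, -0.04 ± 0.17, -0.13 ± 0.13 and -0.14 ± 0.32). The summed homeostatic list was 876, 829 and 987 CPM in THC_Ctrl and 958, 1068 and 989 CPM in Veh_Ctrl. A large part of each sum was Sparc alone, at 335, 302 and 364 CPM in THC_Ctrl and 391, 482 and 427 CPM in Veh_Ctrl. Among 19 tested genes of activated microglia, Fth1, the ferritin heavy chain, was higher without overlap and Lyz2, a lysozyme of myeloid cells, lower (3.72, 4.35 and 4.46 CPM in THC_Ctrl and 5.77, 7.04 and 5.23 CPM in Veh_Ctrl). Complement and phagocytosis genes held 3 higher and 1 lower of 19, with C4b, a classical pathway component of astrocytes and microglia, at 32.1, 30.5 and 35.2 CPM in THC_Ctrl and 22.2, 24.3 and 29.5 CPM in Veh_Ctrl (log2 fold change 0.36 ± 0.21; edgeR adjusted p = 1).

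Interferon-stimulated genes held 3 of 30 higher without overlap and 0 lower, where 5.96% and 6.85% of all genes were, with a median of 0.15. Rsad2, an antiviral effector, had 1.42, 1.68 and 1.08 CPM in THC_Ctrl and 0.903, 0.828 and 1.04 CPM in Veh_Ctrl and Psmb8, an immunoproteasome subunit, 1.33, 1.60 and 1.23 CPM in THC_Ctrl and 0.667, 0.787 and 1.08 CPM in Veh_Ctrl, differences of few reads (edgeR adjusted p = 1 for each). Antigen presentation genes held 2 of 18 higher and 0 lower. Of 19 tested genes of acute inflammation 0 were higher and 3 lower without overlap, among them Tgfb2 (14.4, 9.32 and 12.3 CPM in THC_Ctrl and 16.5, 16.2 and 14.8 CPM in Veh_Ctrl) and the chemokine gene Ccl12 (0.121, 0.0821 and 0.154 CPM in THC_Ctrl and 0.314, 0.456 and 0.332 CPM in Veh_Ctrl). Tnf and Il6 had 0 reads in all 6 saline libraries, which allows a level of up to 3 reads, or 0.115 to 0.125 CPM per library, counting error only, and Il1b had 0, 0.123 and 0.269 CPM in THC_Ctrl and 0.236, 0.248 and 0 CPM in Veh_Ctrl. In the toll-like receptor and NF-kB list 3 of 24 genes were higher without overlap and 1 lower. Nfkbia, given above, and Casp1, the protease that matures interleukin-1 beta (2.31, 2.67 and 2.27 CPM in THC_Ctrl and 1.14, 0.952 and 1.83 CPM in Veh_Ctrl), were among the higher ones.

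Several synaptic and regional neuron lists had mostly negative log2 fold changes. Mostly positive ones were found in the cerebellar list (19 of 20), the olfactory bulb list (17 of 18) and the midbrain and brainstem list (11 of 16). The hypothalamic list was positive in 8 of 15. Over all 17208 tested genes 8123 values were positive and 9078 negative, the background for counts of signs. The hindbrain and spinal Hox list, described below, was positive in 14 of 14. All 20 postsynaptic density genes had negative log2 fold changes (median -0.17), of which 5 did not overlap, among them Camk2a, Nlgn3 and Neto1. Without overlap, 5.96% of all tested genes were higher and 6.85% lower, the background for the list counts here. Camk2a, the kinase most abundant at excitatory synapses of the forebrain, had 2028, 2043 and 2005 CPM in THC_Ctrl and 3081, 2556 and 2296 CPM in Veh_Ctrl (voom adjusted p = 0.0391), and Nlgn3, a synaptic adhesion gene, 42.1, 39.5 and 40.9 CPM in THC_Ctrl and 58.5, 60.5 and 49.3 CPM in Veh_Ctrl (voom adjusted p = 0.0282). DESeq2 called neither Camk2a nor Nlgn3 (adjusted p = 0.842 and 0.538), and edgeR on 12 libraries called neither. The scaffold gene Dlg4 overlapped at 791, 836 and 803 CPM in THC_Ctrl and 921, 909 and 832 CPM in Veh_Ctrl. Presynaptic vesicle genes held 2 of 20 lower without overlap, Cplx1 and Cplx2. Glutamate receptor genes held 2 higher and 4 lower of 24, and GABA synthesis and receptor genes 1 higher and 0 lower of 20. That 1 was Gabra6, a receptor subunit of cerebellar granule cells (102, 94.4 and 111 CPM in THC_Ctrl and 78.05, 90.5 and 81.5 CPM in Veh_Ctrl).

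Striatal markers were all negative (18 of 18, median -0.18), with 4 lower without overlap (Foxp1, Lrrc10b, Tac1 and Adcy5), and Foxp1 had 58.01, 52.5 and 49.6 CPM in THC_Ctrl and 90.3, 73.3 and 66.8 CPM in Veh_Ctrl (voom adjusted p = 0.0188). Their summed level was 1432, 1524 and 1489.8 CPM in THC_Ctrl and 1864, 1792 and 1444 CPM in Veh_Ctrl, where replicate 3 lay within the THC_Ctrl range. Foxp1 was not called by DESeq2 (adjusted p = 0.678) or by edgeR on 12 libraries. The thalamic list had 7 of 14 lower without overlap (median -0.26), including Prkcd (84.9, 91.6 and 98.1 CPM in THC_Ctrl and 112, 107 and 119 CPM in Veh_Ctrl), and cortical excitatory neuron genes 1 higher and 2 lower of 18 (median -0.22). The 1 higher was Nr4a2, itself on the immediate early list. Cerebellar neuron markers went the other way, with 14 of 20 higher and 0 lower without overlap (median 0.26). For each count of this kind, the shares over all tested genes were 5.96% higher and 6.85% lower. Among them Pvalb, a calcium buffer of Purkinje cells and interneurons, had 149, 189.6 and 165 CPM in THC_Ctrl and 121, 149 and 141 CPM in Veh_Ctrl, En2, a cerebellar transcription factor, 49.3, 48.03 and 50.8 CPM in THC_Ctrl and 30.4, 41.9 and 38.9 CPM in Veh_Ctrl, and Slc1a6, the glutamate transporter of Purkinje cells, 57.4, 60.2 and 66.7 CPM in THC_Ctrl and 36.7, 55.3 and 46.1 CPM in Veh_Ctrl. The summed cerebellar list was 3196, 3059 and 3297 CPM in THC_Ctrl and 2733, 2886 and 3006 CPM in Veh_Ctrl. The part of these regional marker differences in the results above was not tested.

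Hox genes, which are expressed in the hindbrain and spinal cord and not in the forebrain, differed between libraries of the same group. The 24 listed genes of the Hox clusters summed to 12.01, 20.1 and 2.31 CPM in THC_Ctrl and 0.314, 0.124 and 4.61 CPM in Veh_Ctrl. Veh_Ctrl replicate 3 exceeded THC_Ctrl replicate 3, so the groups overlapped in this sum. On the hindbrain and spinal Hox list all 14 tested genes had positive log2 fold changes, with a median of 3.06. Of them 3 were higher and 0 lower without overlap, where 5.96% and 6.85% of all tested genes were. Veh_Ctrl held few reads of these genes, with 0 for Hoxb6 and Hoxb8. Slc6a5, the glycine transporter of hindbrain and spinal neurons, followed the same libraries, at 55.5, 63.9 and 17.9 CPM in THC_Ctrl and 12.01, 11.2 and 50.1 CPM in Veh_Ctrl. The olfactory bulb markers Eomes and Cdhr1 were lowest in Veh_Ctrl replicate 1, with Eomes at 11.2, 11.4 and 14.04 CPM in THC_Ctrl and 1.96, 7.08 and 10.5 CPM in Veh_Ctrl and Cdhr1 at 51.7, 46.3 and 41.7 CPM in THC_Ctrl and 9.34, 37.3 and 42.6 CPM in Veh_Ctrl. Choroid plexus markers were also lowest in that library (summed level 1158, 969 and 1259.6 CPM in THC_Ctrl and 756, 1018 and 1222 CPM in Veh_Ctrl). All 16 had positive log2 fold changes (median 0.42), and 3 of 16 genes were higher without overlap. Veh_Ctrl replicate 1 was also the library with the lowest Fos and Cyr61 in its group, and without it the log2 fold change was 1.77 ± 0.35 for Cyr61 and 1.63 ± 0.39 for Fos.

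**Figure D4:**
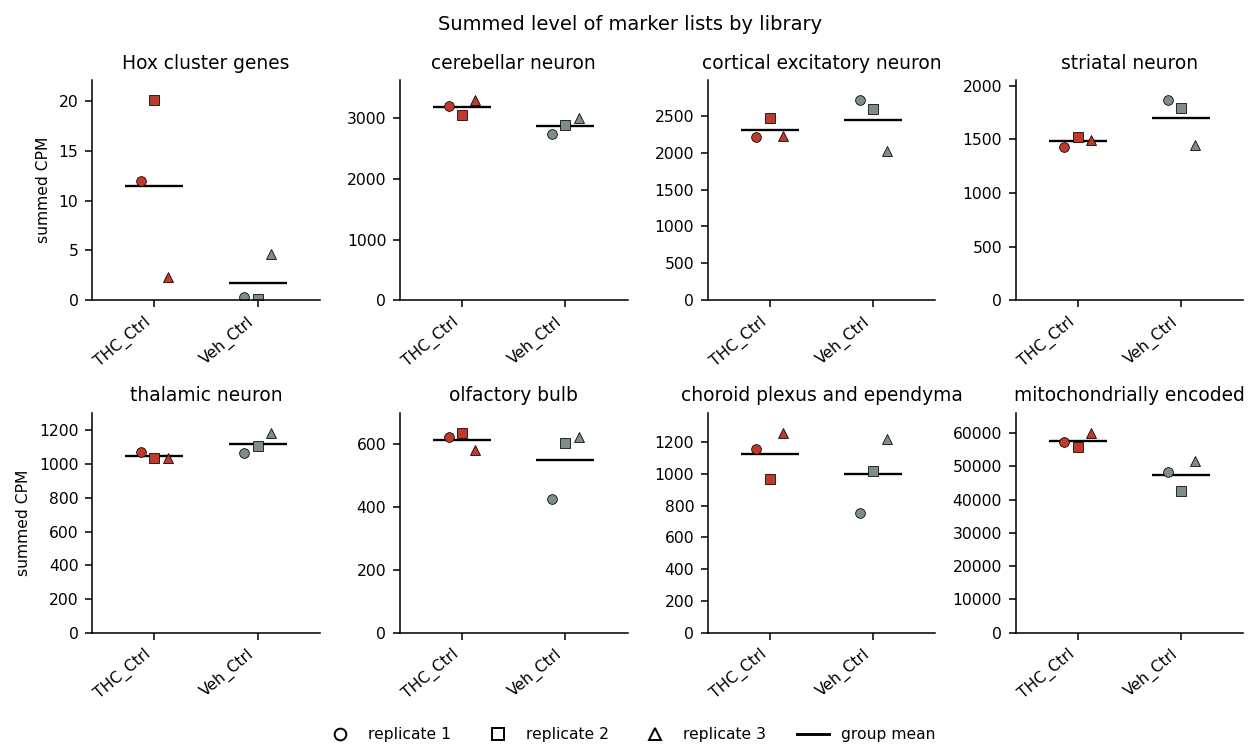
Summed CPM (vertical axes, from 0) of marker lists for brain regions, choroid plexus and mitochondria in the 3 THC_Ctrl and 3 Veh_Ctrl libraries, with symbols for replicates and bars for group means. The cerebellar and mitochondrial panels show groups without overlap, and the Hox panel runs from 2.31 to 20.1 CPM within THC_Ctrl and from 0.124 to 4.61 CPM within Veh_Ctrl.

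Glial and housekeeping lists gave the following, where 5.96% of all tested genes were higher and 6.85% lower without overlap. Oligodendrocyte precursor genes held 0 higher and 3 lower of 11 without overlap (median -0.14), with Olig2 at 32.3, 29.9 and 30.4 CPM in THC_Ctrl and 34.9, 37.1 and 41.7 CPM in Veh_Ctrl. Of 20 astrocyte genes 1 was higher and 4 lower without overlap. Slc1a2, the main glutamate transporter of astrocytes, had 2117, 1779.5 and 1988 CPM in THC_Ctrl and 3046, 2633 and 2405 CPM in Veh_Ctrl (log2 fold change -0.46 ± 0.16; voom adjusted p = 0.0291), whereas Aqp4, the astrocyte water channel, overlapped at 211, 189 and 185 CPM in THC_Ctrl and 189, 196 and 189 CPM in Veh_Ctrl. Slc1a2 was not called by DESeq2 (adjusted p = 0.899) or by edgeR on 12 libraries. Cytosolic ribosomal protein genes had 33 of 34 positive log2 fold changes with a median of 0.13, and 4 did not overlap. Mitochondrially encoded genes were positive in 12 of 12, with 6 higher without overlap (median 0.22), and mt-Co1, a subunit of cytochrome oxidase, had 24730.0, 24870.0 and 28086 CPM in THC_Ctrl and 20632, 18450.0 and 22504 CPM in Veh_Ctrl.

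The LPS libraries give the same adolescent treatments in other mice, after an adult LPS injection. Without LPS the log2 fold change of Cyr61 was 1.95 ± 0.31, and with LPS (THC_LPS over Veh_LPS) it was -0.47 ± 0.31. The corresponding values were 1.04 ± 0.16 and -0.03 ± 0.16 for Egr1, 1.55 ± 0.25 and -0.06 ± 0.25 for Fosb, and 1.68 ± 0.29 and 0.20 ± 0.28 for Nr4a1. Over the 27 AP-1, Egr and Nr4a genes the median was 0.76 without and -0.11 with LPS, and with LPS 1 gene was higher and 1 lower without overlap, where 5.61% and 6.12% of all genes were. The difference of both treatment effects was -2.42 ± 0.44 for Cyr61, -1.06 ± 0.23 for Egr1 and -1.61 ± 0.36 for Fosb (edgeR interaction; adjusted p = 0.710, 0.710 and 0.710), and 0 genes passed it, with 1167 at an unadjusted p under 0.05. The leading genes were ranked by the difference without LPS, which enters the interaction. The size of their interaction values, and their smaller values with LPS, thus partly follow from the choice. Cyr61 averaged 19.9 ± 3.32 CPM in THC_Ctrl and 5.15 ± 1.13 CPM in Veh_Ctrl, and 5.24 ± 0.258 CPM in THC_LPS and 7.17 ± 3.65 CPM in Veh_LPS (SD, n = 3 each). Genes with a difference of the same direction in both settings included Lnpep, an aminopeptidase that cleaves vasopressin and oxytocin, with 45.4, 39.6 and 45.5 CPM in THC_Ctrl and 25.9, 26.7 and 28.98 CPM in Veh_Ctrl (log2 fold change 0.68 ± 0.15, DESeq2 adjusted p = 0.0200) and 0.56 ± 0.15 with LPS. Nr4a3 had 0.66 ± 0.23 with LPS, and Apold1 had 0.40 ± 0.27. For THC_LPS against Veh_LPS edgeR called 0 genes (adjusted p = 0.478 for Lnpep and Nr4a3 and 0.528 for Apold1). Without LPS the edgeR adjusted p of Lnpep was 0.433. These genes were named after their values were seen. Of the 1025 genes higher in THC_Ctrl without overlap, 79 (7.71%) were also higher in THC_LPS and 49 (4.78%) were lower there, against a background of 5.61% and 6.12% of all tested genes. Of the 1179 lower in THC_Ctrl, 73 (6.19%) were lower in THC_LPS as well and 50 (4.24%) were higher.

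**Figure D5:**
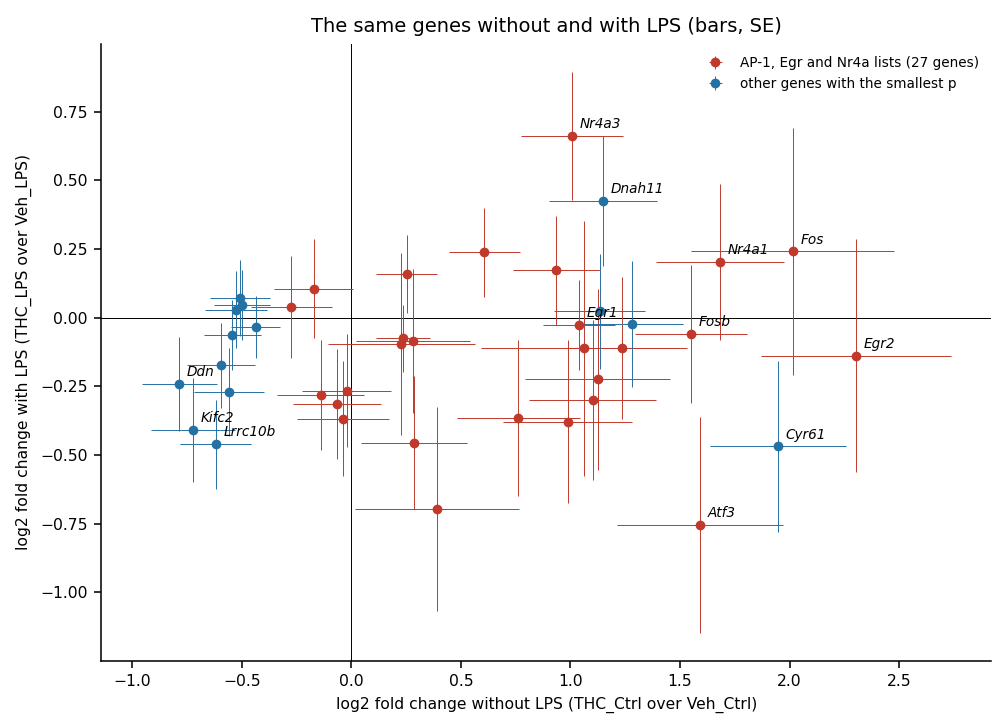
Log2 fold change without LPS (THC_Ctrl over Veh_Ctrl, horizontal) against that with LPS (THC_LPS over Veh_LPS, vertical) for the 27 genes of the AP-1, Egr and Nr4a lists and the other genes with the smallest p, with SE bars. Cyr61, Egr1, Fosb, Fos and Egr2 lie between 1.04 and 2.30 on the horizontal axis and between -0.47 and 0.24 on the vertical axis. The genes with the smallest p were picked by the difference on the horizontal axis.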

How the data were processed

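Brain RNA was purified with TRIzol followed by columns, per the labels' protocols. STAR 2.5, HTSeq, DESeq2 and mm10 appear in the submitters' processing notes. Brain region, library kit, strandedness and annotation version were not given in the sources used here, so reads of paralogs, overlapping genes and antisense genes could be split or dropped. Per the file headers, the authors deposited raw counts of reads for each gene, and only these were used. The deposited normalized columns were left out, since their size factors were set separately for the vehicle and THC sets. The sets list 24562 and 24274 genes, and a gene absent from a set was taken as 0 reads, giving 25556.

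EdgeR 4.0.16 in R 4.3.3 fitted all 12 libraries with group means, TMM scaling, its default expression filter and robust quasi-likelihood F tests, 2-sided. P-values were adjusted by Benjamini-Hochberg over all tested genes, with calls at an adjusted p under 0.05. An approximate SE was derived as |log2 fold change| over the square root of F. DESeq2 1.42.0 and limma 3.58.1 voom with sample weights were alternatives, beside other scaling, filters, sample sets, a replicate block, removal of loess trends (span 0.5) on GC content or gene length, and each library left out. The procedure was tested on simulated data. Every pair of libraries in a group differed by more than sampling noise.

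The members and lists were chosen with earlier results of these data known. Of 966 entries on 51 lists, 963 matched the files. Named genes were the 10 with the smallest p in each direction with a mean of at least 1 CPM and groups that did not overlap, for each list described up to 4 members with the smallest p, and 13 genes named in every case, such as Cnr1, P2ry12, Fos and Cyr61. The genes called by DESeq2, the members whose groups did not overlap, the other list members described and the marker genes were named after their values were seen. Because members were so chosen, no list was tested as a set. Motifs were searched on both strands of the 250 bases upstream of RefSeq starts (GRCm38.p6).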

Additional observations from a re-analysis of the deposited data

Results flagged for a closer look

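For 11 of the named genes all 3 THC libraries lay on one side of all 3 vehicle libraries without LPS and on the opposite side with LPS. Among all 17208 tested genes, 49 were higher without LPS and lower with it, and 50 the reverse. These were 4.78% of the genes higher and 4.24% of those lower without LPS, against 6.12% and 5.61% of all tested genes. Because the 11 were picked by this separation, the size of their values below partly follows from the choice. The value given for each is the edgeR interaction, the log2 fold change of THC_LPS over Veh_LPS minus that of THC_Ctrl over Veh_Ctrl, and 0 of them passed an adjusted p under 0.05. Ddit4 (-0.94), Psmb8 (-2.14), Rsad2 (-1.13), Nfkbia (-0.82), Atf3 (-2.35), Otx2 (-0.93) and Hoxb5 (-5.83) were higher in THC_Ctrl than in Veh_Ctrl and lower in THC_LPS than in Veh_LPS. The reverse held for the glutamate receptor genes Grm3 (0.77) and Grin3a (0.55), for Neto1 (0.65), which encodes an auxiliary subunit of kainate receptors, and for Ntng1 (0.58), an adhesion gene of thalamic axons. The value of Hoxb5 rests on few reads, with 0 in THC_LPS replicate 3 and in Veh_Ctrl replicates 1 and 2. THC_LPS replicate 3, which stood apart by its GC trend, belongs to these comparisons.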

How the results depend on the processing

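EdgeR called 0 genes with median-ratio size factors, a filter of 1 CPM in 3 libraries, and GC or length trends removed. It called 2 with no filter (2 higher) and 4 without both Veh_LPS replicate 2 and THC_LPS replicate 3 (2 higher, 2 lower). DESeq2 called 14 (13 higher, 1 lower), or 74 on the 6 saline libraries (38 and 36). Voom called 97 (36 and 61), and edgeR on 6 libraries called 9 (6 and 3). With 1 library left out the edgeR count ran from 0 to 5, with 3 calls without THC_Ctrl replicate 1, 1 without Veh_LPS replicate 1 and 5 without Veh_LPS replicate 3, all higher (higher calls 0 to 5, lower calls 0). The cause of these differences was not tested. Same-numbered THC_Ctrl and Veh_Ctrl libraries had correlations of 0.02, 0.084 and -0.04 between their deviations from the group means, and not every library correlated best with its own number. No pairing by number was thus seen, but with 3 libraries a group these correlations cannot exclude a shared litter or preparation. With the replicate block edgeR called 7 genes on 12 libraries (7 higher), 112 on 6 (55 and 57), and 8 with GC trends also removed (8 higher). Of 31 gene values 28 kept their sign in every alternative that fitted them. Cnr2 was fitted in 22 of the 25 alternatives and the other genes in all 25. P2ry12 turned positive in 9, at 0.0238 with voom, 0.0002 with median-ratio factors, 0.0073 and 0.0022 with edgeR and DESeq2 on 6 libraries, 0.0176 with GC trends removed, 0.0139 with the block as well, and without Veh_Ctrl replicate 2 (0.0326), THC_Ctrl replicate 1 (0.0357) or THC_Ctrl replicate 2 (0.0654), with a range of -0.1528 to 0.0654 over single libraries left out. Tmem119 reached 0.0235 and 0.0379 without Veh_Ctrl replicate 1 and 2 (range -0.1469 to 0.0379), and Aif1 0.1955 without Veh_Ctrl replicate 2 (range -0.33 to 0.1955). Of 50 list medians 22 changed sign in at least 1 alternative. With 3 libraries a group, an exact permutation test of a single value cannot go below p = 0.1.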
